A study of Mus musculus with 6 samples.

Results

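*Itm2a*, *Ttyh2*, *Tmem98*, *Fcgrt* and *Spock2* code for cell surface or matrix proteins and were expressed in the endothelial cells (ECs) studied here. They are 5 of the 56748 genes of a bulk RNA-Seq count table made from ECs of the mouse spinal cord. They were selected on their response, since they belong to the lower genes of the heatmap that the study drew for the same comparison. Their difference between the genotypes is therefore given as a description, with no test. Each symbol had 1 row in the table, and all 5 genes passed the filter on low counts that left 13107 genes for testing.

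The study deleted *Tardbp*, which encodes the RNA-binding protein TDP-43, from ECs and asked which transcripts differ. ECs were sorted by flow cytometry from spinal cords of P16 mice (postnatal day 16) on a C57BL/6 background, with 3 libraries per group. Each library is taken here as 1 mouse, although the sample titles do not say whether mice were pooled. The 3 control mice carried Tardbpflox, the floxed *Tardbp* gene, and the 3 TDP-43iΔEC mice carried Cdh5(PAC)-CreERT2;Tardbpflox. Every mouse, controls included, received tamoxifen at 1 mg/mL from P5 to P7. The *Cdh5* promoter drives Cre in ECs of all organs and not only in those of the spinal cord, and the controls carried no Cre. Tamoxifen-activated Cre and the loss of *Tardbp* therefore cannot be told apart in this design. Individual mice are called control 1 to 3 and TDP-43iΔEC 1 to 3.

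The protein of *Itm2a* is a type II membrane protein of the ITM2 family, whose BRICHOS domain lies outside the cell or in the lumen, and proprotein convertases of the furin kind cut its relatives. The product of *Ttyh2* belongs to the tweety family of membrane proteins, long discussed as anion channels. *Tmem98* encodes a membrane protein best known from myelinating cells, where it binds the transcription factor MYRF and hinders its self-cleavage. *Fcgrt* encodes the heavy chain of the neonatal Fc receptor FcRn, which pairs with β2-microglobulin and carries IgG and albumin back out of endosomes. *Spock2* encodes testican-2, a secreted proteoglycan of the SPARC family that sits in the matrix. TDP-43 itself prefers RNA rich in UG repeats and acts in splicing and RNA stability.

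The libraries held 25704871 to 47270654 counts, and TDP-43iΔEC 2 and 3 were the shallowest. Values are given in CPM, the share of a library's counts scaled to a common total, with libraries adjusted by the trimmed mean of M values (TMM). The count of *Tardbp* covers the whole gene and not only the deleted exon. It stood at 55.3, 61.9 and 58.5 CPM in the controls and at 26.6, 16.2 and 11.8 CPM in the TDP-43iΔEC mice. On the log2 scale this was -1.62 ± 0.41 (fitted change ± SE), with an adjusted p of 0.287 in limma (Benjamini-Hochberg method, all tested genes). The EC markers were present in every library. The 9 genes summed to 10850 to 14240 CPM in controls and 9717 to 11520 CPM in TDP-43iΔEC mice. Of them, 8 had a lower mean in TDP-43iΔEC mice, and *Pecam1* had a higher one. *Flt1*, *Kdr* and *Tek* were lower without overlap, as were 7.93% of all tested genes. For *Flt1* the log2 change was -0.69 ± 0.11 (SE, limma adjusted p = 0.0635). TDP-43iΔEC 1 was the only library without *Xist* and the only one with counts of the Y-linked genes *Ddx3y*, *Eif2s3y*, *Kdm5d* and *Uty*. Leaving it out gave 0 genes with an adjusted p under 0.05 in limma, and 960 with an unadjusted p under 0.05. Leaving out another mouse also left few genes, from 2 lower without TDP-43iΔEC 3 to 13 lower without control 3. The part of sex in these counts was not tested.

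All 5 genes were lower in every TDP-43iΔEC mouse than in every control mouse. The mean level in TDP-43iΔEC mice was 37.0% of the control mean for *Tmem98*, 44.6% for *Fcgrt*, 45.2% for *Ttyh2*, 49.3% for *Spock2* and 57.5% for *Itm2a*. Of all tested genes, 7.93% were lower in all TDP-43iΔEC mice without overlap, and 7.4% were higher without overlap. With the limma test, 14 genes (0.107%) were lower and 4 genes (0.0305%) were higher past an adjusted p of 0.05. The split depended on the scaling. With library size alone it was 6 lower and 4 higher, and with scaling to 5 EC markers it was 0 lower and 1 higher, where 1206 genes had an unadjusted p under 0.05. Nothing is read from these shares about the 5 genes, which were chosen on this very comparison. In bulk samples, fewer cells that express a gene and less RNA per cell cannot be told apart.

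**Figure D1:**
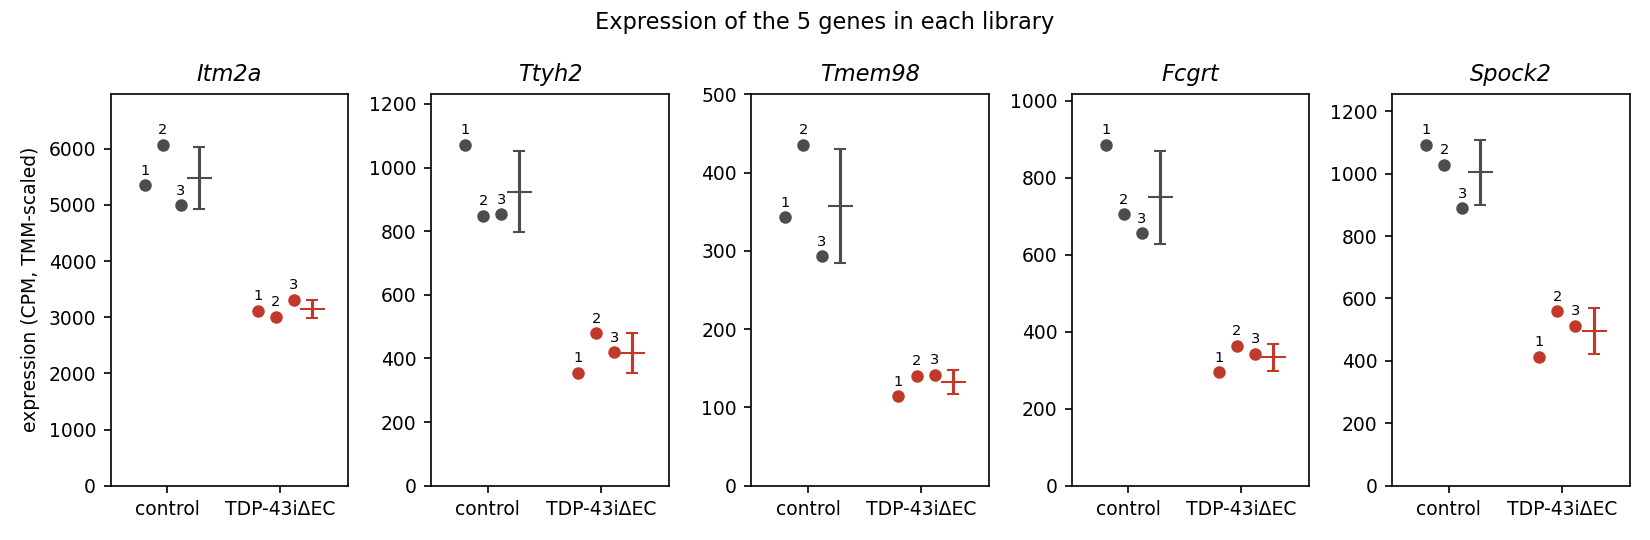
Expression of *Itm2a*, *Ttyh2*, *Tmem98*, *Fcgrt* and *Spock2* in TMM-scaled CPM (vertical axes, each from 0) by group, with a point for each mouse, its number above, and the mean ± SD beside the points (n = 3 mice per group). In each panel the 3 TDP-43iΔEC points lie below the 3 control points, with the narrowest gap on the log2 scale for *Itm2a* (4992 CPM in the lowest control, 3312 CPM in the highest TDP-43iΔEC mouse).

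*Itm2a* (ENSMUSG00000031239.6) lies on the X chromosome of GRCm39 from 106418945 to 106447419, on the minus strand. Control mice 1, 2 and 3 had 5357, 6075 and 4992 CPM, and TDP-43iΔEC mice 1, 2 and 3 had 3116, 3012 and 3312 CPM. It was the 11th most abundant of the tested genes in controls by CPM. The mean fell from 5475 ± 550.9 to 3147 ± 152.3 CPM (SD, n = 3 mice each), with a log2 fold change of -0.80 and a standard error of 0.098. This was the smallest change and also the smallest standard error of the 5. The other 4 genes had standard errors from 0.16 to 0.23. *Itm2a* is X-linked, and TDP-43iΔEC 1, the mouse with Y-linked counts, had a value between those of its 2 group mates. Without that mouse the log2 fold change was -0.79, and over all 6 ways of leaving out 1 mouse it ran from -0.87 to -0.73.

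*Ttyh2* (ENSMUSG00000034714.10) spans 114566230 to 114611809 on the plus strand of chromosome 11. Its values were 1072, 848.2 and 853 CPM in the controls and 355, 479.7 and 419.4 CPM in the TDP-43iΔEC mice. Control 1 stood above the other controls, and TDP-43iΔEC 1 was the lowest of its group. The group means were 924.3 ± 127.7 and 418 ± 62.4 CPM (SD, n = 3 mice each), or -1.17 ± 0.17 in log2 (fitted change ± SE).

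*Fcgrt* (ENSMUSG00000003420.9) spans 44742412 to 44756819 on the minus strand of chromosome 7. The controls had 886.2, 705.2 and 656.2 CPM, and the TDP-43iΔEC mice had 295.3, 363.3 and 343 CPM. The order of the mice resembled that of *Ttyh2*, with control 1 highest and TDP-43iΔEC 1 lowest. Means were 749.2 ± 121.2 and 333.9 ± 34.93 CPM (SD, n = 3 mice each), or -1.18 ± 0.18 in log2 (fitted change ± SE).

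*Spock2* (ENSMUSG00000058297.17) spans 59942041 to 59971357 on the plus strand of chromosome 10. The controls had 1093, 1029 and 889.7 CPM, and the TDP-43iΔEC mice had 413.3, 559.5 and 512.8 CPM. As for *Fcgrt*, control 1 was the highest library and TDP-43iΔEC 1 the lowest. Means were 1004 ± 104.1 and 495.2 ± 74.71 CPM (SD, n = 3 mice each), or -1.05 ± 0.16 in log2 (fitted change ± SE).

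*Tmem98* (ENSMUSG00000035413.9) spans 80700551 to 80713109 on the plus strand of chromosome 11 and was the least abundant of the 5 by CPM. The controls had 343.3, 435.7 and 293 CPM, and the TDP-43iΔEC mice had 114.5, 140.7 and 141.7 CPM. On the log2 scale the controls were spread more widely here than for the other 4 genes (SD 0.29), while in CPM their SD was the smallest of the 5, and control 2 was the highest. Means were 357.3 ± 72.39 and 132.3 ± 15.46 CPM (SD, n = 3 mice each), or -1.44 ± 0.23 in log2 (fitted change ± SE). It had the largest fitted change among the 5 and also the largest standard error.

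The smallest count of any member in any library was 3675, for *Tmem98* in TDP-43iΔEC 3, and the largest was 251582, for *Itm2a* in control 2. The libraries came from very small amounts of RNA and PCR copies were counted as reads, so these counts do not give the number of RNA molecules sampled. *Itm2a* made up 61.2% to 72.6% of the summed CPM of the 5 genes in each library. The sum was 8752, 9093 and 7684 CPM in the controls and 4294, 4556 and 4729 CPM in the TDP-43iΔEC mice.

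Levels of different genes are comparable only per length. Per kb of merged exons, *Itm2a* had 922.7 ± 92.85 CPM in controls (SD, n = 3 mice) and ranked 27th of the 13060 tested genes with a known length. *Spock2* had 171.1 ± 17.73, *Tmem98* 170.6 ± 34.57, *Fcgrt* 152.4 ± 24.65 and *Ttyh2* 74 ± 10.22 CPM per kb in the same mice. *Spock2* and *Tmem98* differed by less than the SD of either, and *Fcgrt* lay 18.7 CPM per kb below *Spock2*, more than the SD of *Spock2* and less than its own. The order of these 4 genes rested on the length used. Per kb of the transcript marked canonical, *Itm2a* was still first with 3118 ± 313.7 CPM per kb in controls, but *Ttyh2* came next with 263.1 ± 36.35, ahead of *Fcgrt* with 255.5 ± 41.33, *Tmem98* with 189.8 ± 38.44 and *Spock2* with 180.1 ± 18.67 CPM per kb. *Ttyh2* has 12491 bp of merged exons and 3513 bp in its canonical transcript, the widest gap of the 5 in bp. In TDP-43iΔEC mice, *Itm2a* also led under both lengths, with 530.4 ± 25.67 CPM per kb of merged exons and 1792 ± 86.73 CPM per kb of the canonical transcript.

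Profiles of the 5 genes over the libraries were compared as a description, with no test. Likeness was measured as the root-mean-square difference of log2 CPM over the 6 libraries after each gene was centred on its own mean, so that 0 means parallel values. *Ttyh2* and *Fcgrt* were each other's nearest gene among all tested genes, with a difference of 0.0555 on the log2 scale. The median difference to all tested genes was 0.998 for *Ttyh2* and 0.9995 for *Fcgrt*. *Spock2* was also near to *Ttyh2* (0.1018, with 2 genes nearer) and to *Fcgrt* (0.1051, with 1 gene nearer), and its own nearest gene was *Zdhhc4* (0.0677), which encodes an enzyme that adds palmitate to proteins. *Adgra2*, the gene of the receptor GPR124 that acts with RECK in Wnt7 signaling of brain ECs, was among the 3 nearest genes of *Ttyh2* (0.0972) and of *Fcgrt* (0.1217). *Gstk1*, a glutathione transferase gene, was among the 3 nearest of *Spock2* (0.1045).

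*Itm2a* and *Tmem98* stood outside this trio. The genes most like *Itm2a* were *Apcdd1* (0.0797), which codes for a membrane-bound Wnt inhibitor, the TGF-β receptor gene *Tgfbr2* (0.0907) and the gene listed as ENSMUSG00000121069 (0.0997). *Apcdd1* had 770.7, 866.1 and 720.7 CPM in the controls and 411.7, 398.4 and 412.4 CPM in the TDP-43iΔEC mice, with control 2 highest and TDP-43iΔEC 2 lowest, as for *Itm2a*. The genes most like *Tmem98* were *Fam110d* (0.1359), *Extl3* (0.1403), which encodes a glycosyltransferase of heparan sulfate synthesis, and *Msrb3* (0.1654), which encodes a methionine sulfoxide reductase. *Extl3* shared the high value of control 2, with 287.9, 318.1 and 206.2 CPM in the controls and 105.3, 124.2 and 119.9 CPM in the TDP-43iΔEC mice. Between members, *Itm2a* and *Tmem98* were the least alike pair (0.3394), with 744 genes nearer to *Itm2a* than *Tmem98* was. These distances rest on 6 libraries and contain the genotype difference that chose the members. A gap in fitted change alone makes genes less alike. The log2 fold changes were -1.17 for *Ttyh2*, -1.18 for *Fcgrt* and -1.05 for *Spock2*, against -0.80 for *Itm2a* and -1.44 for *Tmem98*. Whether the grouping goes beyond this gap was not tested.

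**Figure D2:**
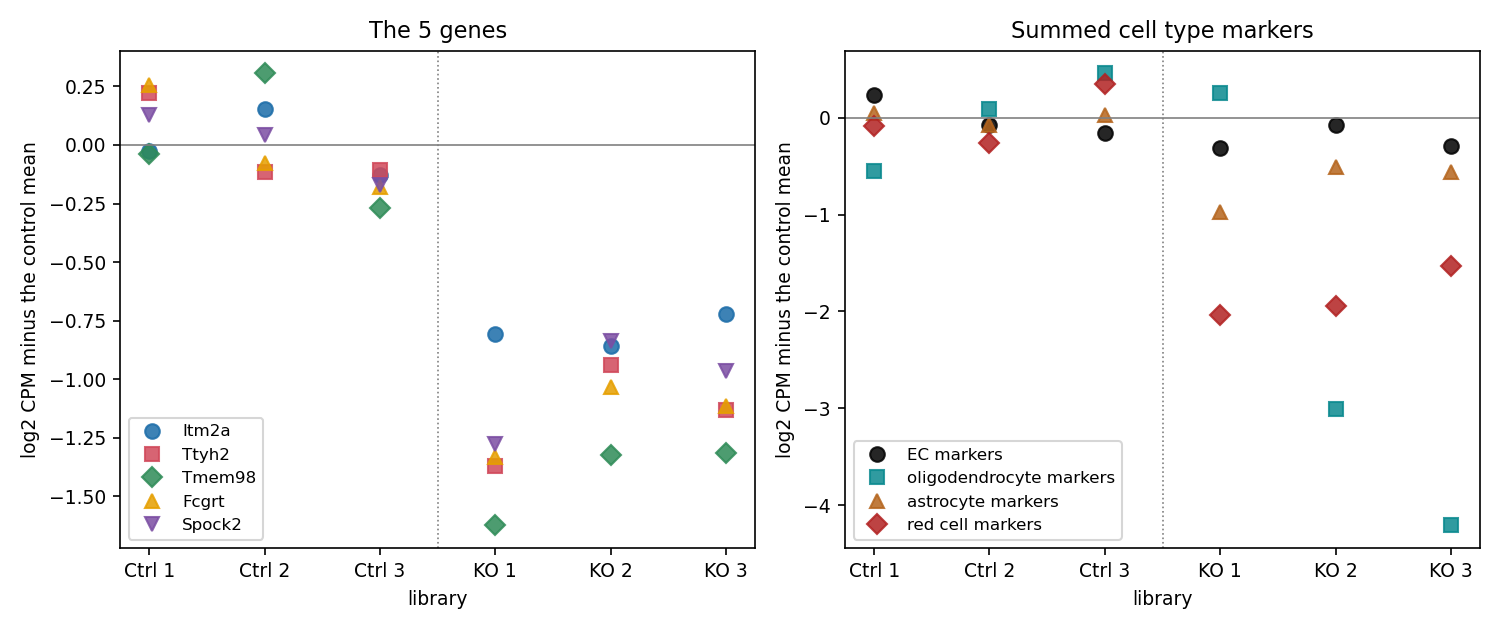
Log2 CPM minus the mean of the 3 controls (vertical axis) in each of the 6 libraries (horizontal axis), on the left for the 5 genes and on the right for summed markers of ECs, oligodendrocytes, astrocytes and red cells. *Ttyh2*, *Fcgrt* and *Spock2* keep close together, *Tmem98* lies lowest in all TDP-43iΔEC mice, and oligodendrocyte markers are high in TDP-43iΔEC 1, where 4 of the 5 genes are at their lowest.

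Markers of other cell types also differed between the libraries. *Tmem98* and *Ttyh2* are known from glia as well as from ECs, so the glial lists are given with them. The 10 oligodendrocyte markers summed to 365.5, 569.5 and 735 CPM in the controls and to 639, 66.3 and 28.9 CPM in the TDP-43iΔEC mice, and the groups overlapped. TDP-43iΔEC 1 was within the range of the controls for this sum, whereas *Ttyh2*, *Tmem98*, *Fcgrt* and *Spock2* were at their lowest there. Of this list, 8 of 10 genes had a lower mean in TDP-43iΔEC mice, and *Myrf*, a defining gene, was at 0 counts in every library. With TDP-43iΔEC 1 left out, the mean log2 fold change of the 5 members was -1.03, against -1.13 with all mice.

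The 6 astrocyte markers summed to 260.5, 238.1 and 255.9 CPM in the controls and to 128.3, 177 and 170.2 CPM in the TDP-43iΔEC mice, lower in each. Most of that sum was *Gja1*, the gene of the gap junction protein connexin 43, with 229.9 ± 18.48 and 147.6 ± 38.88 CPM (SD, n = 3 mice each). Of the other markers, *Aqp4* was at 0 in control 2 and in all TDP-43iΔEC mice, *Aldh1l1* reached 2.77 CPM and *Slc1a3* 5.36 CPM. *Gfap* had 6.81, 22.7 and 0.0459 CPM in the controls and 23.3, 3.40 and 0 CPM in the TDP-43iΔEC mice, which overlapped. *Slc1a2* had 4.50, 6.79 and 11.1 CPM in the controls and 0, 1.93 and 0.501 CPM in the TDP-43iΔEC mice. The 6 neuron markers summed to 5.13 to 12.0 CPM in controls and 1.93 to 3.21 CPM in TDP-43iΔEC mice, although *Rbfox3* of that list went the other way, with at most 0.0466 CPM in controls and 0.514 to 1.93 CPM in TDP-43iΔEC mice. The 5 red cell markers summed to 6935 to 10580 CPM and to 2034 to 2884 CPM. The antibodies listed by the study for flow cytometry include TER-119 and CD45 beside CD31, with which red cells and leukocytes can be gated out, but the gates themselves are not given in the sources used here. The 5 members were lower in the same mice as the red cell sum, the astrocyte sum and the neuron sum. The astrocyte sum was mostly *Gja1*, and *Gfap* and *Slc1a3* of that list overlapped between the groups. The neuron sum was small and in control 2 was mostly *Map2* (9.56 CPM). The part of these cells in the result was not tested. The sums of 8 microglia and macrophage markers (at most 8.14 CPM), 6 mural and 5 fibroblast markers overlapped between the groups.

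To set the 5 genes beside their relatives and partners, 134 genes in 11 lists were examined, of which 104 could be tested. In limma, 0 of them passed an adjusted p of 0.05 in either direction, and 12 (11.5%) were lower and 3 (2.88%) higher at an unadjusted p under 0.05. Over all tested genes the same limit was met by 5% in the lower and 4.26% in the higher direction. edgeR called 0 of the related genes, but it also called 0 of all 13107 tested genes. DESeq2 called 2 related genes, *Fcgr3* (higher) and *Rab4a* (lower), beside 143 lower and 107 higher among all tested genes. The median log2 fold change of the 104 genes was -0.08, against -0.02 over all tested genes. The lists were chosen with results on the members known.

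In the ITM2 family, *Itm2b*, the ITM2 gene mutated in familial British and Danish dementia, had 1504, 1635 and 1589 CPM in the controls and 1293, 1179 and 1062 CPM in the TDP-43iΔEC mice. The groups did not overlap, and the fitted log2 change was -0.41 ± 0.11 (SE, limma adjusted p = 0.341). *Itm2c* went the other way without passing the test, with 133 ± 42.12 and 174 ± 74.33 CPM (SD, n = 3 mice each) and groups that overlapped (log2 change 0.28 ± 0.38 SE, limma adjusted p = 0.830). The more distant BRICHOS genes *Cnmd*, *Tnmd* and *Sftpc* had 0 counts in all libraries, and *Bricd5* had at most 7.24 CPM. The ratio of *Itm2a* to *Itm2b* in CPM was 3.56, 3.71 and 3.14 in the controls and 2.41, 2.56 and 3.12 in the TDP-43iΔEC mice. The ratio was lower in each TDP-43iΔEC mouse, by a narrow margin in TDP-43iΔEC 3.

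Of the 7 proteases that cut ITM2 proteins, 0 passed the limma test. *Adam10*, which sheds the outer part of ITM2B, had 444.6 ± 61.56 CPM in controls and 302.7 ± 28.85 CPM in TDP-43iΔEC mice (SD, n = 3 mice each), or -0.53 ± 0.17 in log2 (SE, limma adjusted p = 0.402). The convertase gene *Pcsk5* had 1.90 to 5.72 CPM in the controls, was at 0 in TDP-43iΔEC 1 and 3 and reached 10.7 CPM in TDP-43iΔEC 2 (limma adjusted p = 0.589).

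The other tweety genes were scarce. *Ttyh3* had 13.4, 9.37 and 14.9 CPM in the controls and 21.2, 6.52 and 7.87 CPM in the TDP-43iΔEC mice, a log2 fold change of 0.01 with a 95% interval from -1.51 to 1.52 (limma adjusted p = 0.999). *Ttyh1* ranged from 0 to 2.87 CPM in controls and from 0.803 to 10.9 CPM in TDP-43iΔEC mice (limma adjusted p = 0.631). The ratio of *Ttyh2* to *Ttyh3* in CPM overlapped between the groups, with 79.8, 90.5 and 57.4 in the controls and 16.8, 73.6 and 53.3 in the TDP-43iΔEC mice. Of 16 tested anion channels and transporters, 0 passed the test. *Clcn7*, a lysosomal chloride-proton exchanger, had 92.31 ± 15.73 and 40.92 ± 24.49 CPM (SD, n = 3 mice each), or -1.32 ± 0.39 in log2 (SE, limma adjusted p = 0.360). The endosomal exchanger gene *Clcn3* had a fitted value of -0.62 ± 0.30 in log2 (SE, limma adjusted p = 0.558).

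Of the 6 tested partner genes of TMEM98, 0 passed the limma test. *Myrf* and its relative *Myrfl* were at 0 counts in all 6 libraries, where 3 counts correspond to 0.0617 to 0.116 CPM, so the best known partner was not detected in these cells. *Nedd4*, a ubiquitin ligase, had 453.5 ± 78.07 CPM in controls and 408.8 ± 45.91 CPM in TDP-43iΔEC mice (SD, n = 3 mice each), and the 95% interval of its log2 fold change ran from -0.56 to 0.26 (limma adjusted p = 0.807). The ligase adaptors *Ndfip1* and *Ndfip2* had fitted log2 changes of -0.09 ± 0.23 (SE, limma adjusted p = 0.922) and -0.20 ± 0.30 (SE, limma adjusted p = 0.844). *Nedd4l* varied from 1.70 to 21.4 CPM among the controls alone (limma adjusted p = 0.767). *Frat1* and *Frat2*, whose products bind the kinase GSK3, stayed at or below 6.16 CPM (limma adjusted p = 0.931 and 0.971).

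Next to *Fcgrt*, *B2m*, the gene of the light chain β2-microglobulin, had 671.3, 647.8 and 898.8 CPM in the controls and 738, 677.1 and 830.1 CPM in the TDP-43iΔEC mice, and the groups overlapped. Its log2 fold change was 0.02 with a 95% interval from -0.35 to 0.39 (limma adjusted p = 0.979). The ratio of *Fcgrt* to *B2m* in CPM was 1.32, 1.09 and 0.730 in the controls and 0.400, 0.536 and 0.413 in the TDP-43iΔEC mice. *Fcgrt* was chosen for its lower level in this comparison, so this ratio and those for the other members are descriptions. Other Fc receptors were scarce. *Fcgr3*, an activating IgG receptor of myeloid cells, was at 0 in all controls and at 7.28, 1.77 and 7.13 CPM in the TDP-43iΔEC mice (limma adjusted p = 0.223). *Fcgr2b* and *Pigr* had 0 counts throughout, *Fcgr1* and *Fcgr4* were counted in 1 library each, and *Fcer1g* and *Trim21* had at most 3.56 CPM (limma adjusted p = 0.898 and 0.923).

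Genes of the endosomal route on which FcRn travels were tested in 19 cases, and 0 passed. The lowest p values belonged to *Rab11fip1*, an effector of the recycling GTPase RAB11, and *Rab4a*, a GTPase of fast recycling. *Rab11fip1* had 76.9, 51.8 and 73.9 CPM in the controls and 18.7, 28.8 and 36.5 CPM in the TDP-43iΔEC mice, or -1.40 ± 0.38 in log2 (SE, limma adjusted p = 0.316). *Rab4a* had 60.9, 116.3 and 94.0 CPM and 41.6, 31.5 and 36.02 CPM, or -1.24 ± 0.36 in log2 (SE, limma adjusted p = 0.360). Neither gene overlapped between the groups.

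*Spock2* was the only testican gene with counts in more than 1 library. *Spock1* was at 0 throughout and *Spock3* was counted in control 3 alone (2.96 CPM). *Sparc*, whose product is an abundant matrix glycoprotein of the same family, had 9067 ± 919.2 CPM in controls and 9109 ± 661.4 CPM in TDP-43iΔEC mice (SD, n = 3 mice each). Its log2 fold change was -0.01, with a 95% interval from -0.21 to 0.20 (limma adjusted p = 0.993). *Sparcl1* had 3558 ± 475.7 and 2984 ± 191.2 CPM, or -0.24 ± 0.11 in log2 (SE, limma adjusted p = 0.558). *Smoc2* (28.69 ± 6.781 and 24.29 ± 6.752 CPM, limma adjusted p = 0.884) and *Fstl1* (44.79 ± 19.98 and 39.79 ± 35.8 CPM, limma adjusted p = 0.704) overlapped between the groups, and *Smoc1* had 0 counts. The ratio of *Spock2* to *Sparc* was 0.110, 0.127 and 0.0978 in the controls and 0.0495, 0.0589 and 0.0541 in the TDP-43iΔEC mice.

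Matrix proteases and their inhibitors were examined beside *Spock2* because its product sits in the matrix, and of 8 tested genes 0 passed the limma test. *Timp3*, an inhibitor of metalloproteases, had 253.6 ± 92.13 CPM in controls and 367 ± 22.97 CPM in TDP-43iΔEC mice (SD, n = 3 mice each, log2 change 0.60 ± 0.24 SE, limma adjusted p = 0.513). *Ctsl*, the cathepsin L gene, had a fitted value of -0.43 ± 0.18 in log2 (SE, limma adjusted p = 0.522). Among 14 tested genes of heparan sulfate proteoglycans and their chains, 0 passed. *Agrn*, the basement membrane proteoglycan agrin, had 424, 320.5 and 352.8 CPM in the controls and 235.7, 242.5 and 235.2 CPM in the TDP-43iΔEC mice, with no overlap (log2 change -0.61 ± 0.17 SE, limma adjusted p = 0.353). *Sdc2*, the syndecan-2 gene, had a log2 fold change of -2.64 that rested on TDP-43iΔEC 1 at 0.391 CPM, beside 22.1 and 16.7 CPM in its group mates (limma adjusted p = 0.558).

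Among 21 tested other EC surface genes, 0 passed the test. *Adgrf5*, an adhesion receptor gene, had 1185 ± 260.6 and 739.2 ± 115.4 CPM (SD, n = 3 mice each), or -0.68 ± 0.20 in log2 (SE, limma adjusted p = 0.360). *Ptprb*, the gene of the phosphatase VE-PTP, had a fitted value of -0.53 ± 0.17 in log2 (SE, limma adjusted p = 0.395). The median of this list was -0.18.

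**Figure D3:**
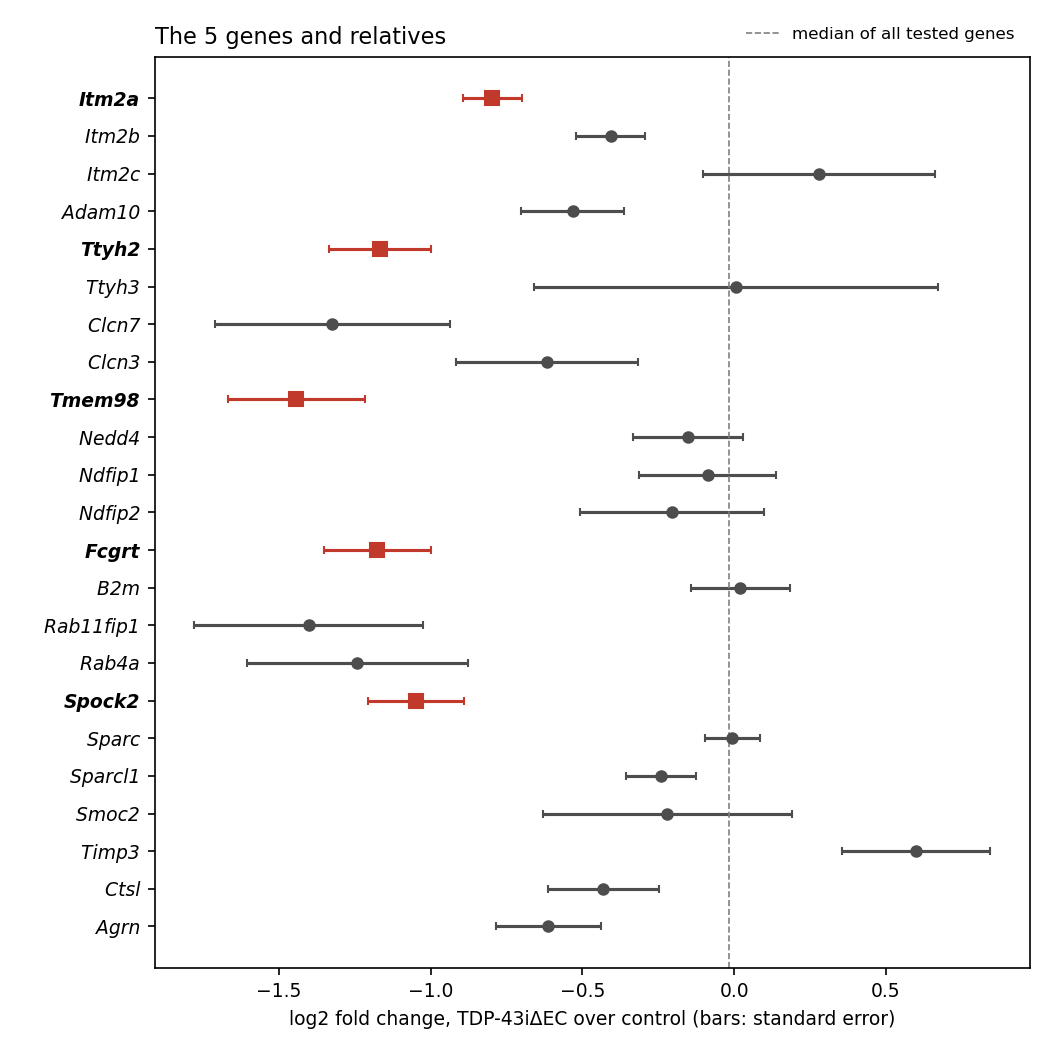
Log2 fold change of TDP-43iΔEC over control mice (horizontal axis) with its standard error for the 5 genes (red squares) and, under each, named relatives and partners with a standard error under 0.7 (grey circles). *B2m*, *Sparc* and *Nedd4* lie near the median of all tested genes (dashed line, -0.02).

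The 5 genes lie on 4 chromosomes, and in GENCODE M39 no exon of theirs shares bases with an exon of another annotated gene. The counts were made on GENCODE M30, in which overlap was not examined. The nearest tested gene on each side, looked up after the members' values were known, had an adjusted p of 0.388 or more in limma for all 10 neighbours. The lowest was *Ascc1*, 6219 bp from *Spock2*, with 40.13 and 17.55 CPM in controls and TDP-43iΔEC mice (log2 change -1.29 ± 0.40 SE). *Rcn3*, 744 bp from *Fcgrt*, had a fitted value of 0.53 ± 0.38 in log2 (SE, limma adjusted p = 0.664), and *Rpl38*, 3064 bp from *Ttyh2*, had one of -0.46 ± 0.33 (SE, limma adjusted p = 0.664).

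Because TDP-43 prefers UG repeats, the genes were searched for uninterrupted TG runs of at least 12 bases on the transcribed strand of GRCm39. All 5 genes held such runs, 11 in *Ttyh2*, 3 each in *Itm2a*, *Fcgrt* and *Spock2* and 2 in *Tmem98*. At least 1 run is found in 66.8% of the tested genes with a known position. Per 10 kb of gene, *Ttyh2* had 2.41 runs and *Fcgrt* 2.08, at percentiles 94.3 and 91.8 of those genes, *Tmem98* had 1.59 (percentile 84.5), and *Itm2a* and *Spock2* had 1.05 and 1.02 (percentiles 67.6 and 66.3). The median was 0.686. The longest intronic run of 4 genes is shown with 10 flanking bases on each side, and the run is in capitals. Such stretches are what TDP-43 could meet in an unspliced transcript that reaches them. For *Tmem98*, *Ttyh2* and *Fcgrt* the run shown lies within the transcript marked canonical. All 3 runs of *Itm2a* lie beyond the 3′ end of its canonical transcript (position 106440705), so they are intronic only in longer transcripts. No binding was measured here.
Tmem98, intron, chr11:80705944-80706019, plus strand: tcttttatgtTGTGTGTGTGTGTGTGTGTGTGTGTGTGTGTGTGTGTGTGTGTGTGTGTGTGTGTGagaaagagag
Ttyh2, intron, chr11:114605737-114605809, plus strand: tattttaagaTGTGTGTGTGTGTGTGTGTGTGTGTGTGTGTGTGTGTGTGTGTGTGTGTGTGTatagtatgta
Fcgrt, intron, chr7:44749474-44749535, minus strand: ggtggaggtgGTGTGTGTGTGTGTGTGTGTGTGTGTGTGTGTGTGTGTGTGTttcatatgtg
Itm2a, intron, chrX:106436521-106436571, minus strand: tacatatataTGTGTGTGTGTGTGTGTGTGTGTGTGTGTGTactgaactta
The runs are 56, 53, 42 and 31 bases long, against a median longest run of 42 bases among tested genes that hold one. In *Spock2* the intronic run is 17 bases long and its 2 other runs lie in the 3′ UTR. The other run of *Tmem98*, 33 bases long, also lies in its 3′ UTR.

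The promoters of the 5 genes were compared as a description. That the genes are lower together follows from how they were chosen. The windows, from RefSeq on GRCm38.p6, reach from 250 bases before to 50 bases after each start, and 5 short motifs were searched on both strands in 32851 such windows. The TCF/LEF core (CTTTGAT or CTTTGAA), through which β-catenin reaches DNA, was found once in *Spock2* and in no other member, and 8.65% of all windows hold it. The GC box (GGGCGG) was found once in *Itm2a*, 2 times in *Ttyh2* and 3 times in *Tmem98*, with 35.7% of all windows holding it. The TATA box (TATAAA, 13.6% of windows), the ETS core (CCGGAA, 14.9%) and the SOX core (AACAAT, 10.7%) were found in 0 of the 5 windows. The GC content of the windows ran from 52.3% in *Spock2* to 74.3% in *Tmem98*, beside a median of 52.7%. The 250 bases before the start are shown for the trio with the most similar profiles, with GC boxes and the TCF/LEF core in capitals.
Ttyh2, GRCm38.p6, chr11:114675218-114675467, plus strand: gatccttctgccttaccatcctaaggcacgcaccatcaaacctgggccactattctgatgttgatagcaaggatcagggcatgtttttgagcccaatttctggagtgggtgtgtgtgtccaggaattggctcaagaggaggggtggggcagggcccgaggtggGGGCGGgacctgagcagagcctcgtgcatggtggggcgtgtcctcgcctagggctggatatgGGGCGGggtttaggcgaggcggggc
Fcgrt, GRCm38.p6, chr7:45103823-45104072, minus strand: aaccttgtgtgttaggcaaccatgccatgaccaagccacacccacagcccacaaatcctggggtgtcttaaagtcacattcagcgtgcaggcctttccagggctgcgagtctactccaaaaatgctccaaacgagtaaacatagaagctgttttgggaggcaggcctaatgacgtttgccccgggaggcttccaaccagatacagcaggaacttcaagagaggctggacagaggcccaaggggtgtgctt
Spock2, GRCm38.p6, chr10:60106007-60106256, plus strand: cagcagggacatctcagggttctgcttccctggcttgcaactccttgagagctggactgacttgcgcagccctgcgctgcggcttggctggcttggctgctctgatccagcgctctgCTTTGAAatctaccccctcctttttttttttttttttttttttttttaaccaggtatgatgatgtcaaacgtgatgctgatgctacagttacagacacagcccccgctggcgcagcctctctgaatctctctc
*Ttyh2* and *Fcgrt*, the pair with the closest expression profiles, shared none of the 5 motifs in these windows. A match of letters is a description and not a measured site.

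The direction of the 5 genes held in each of 16 alternatives that changed the test, the scaling, the filter or the mice used. The genes were chosen on this comparison in the same mice, so this is a description. The scaling mattered most for the size. When the libraries were scaled to 5 EC markers (*Pecam1*, *Cldn5*, *Kdr*, *Flt1* and *Vwf*), the log2 fold changes were -0.56 for *Itm2a*, -0.93 for *Ttyh2*, -1.20 for *Tmem98*, -0.94 for *Fcgrt* and -0.80 for *Spock2*. Of these 5 markers, *Flt1* and *Kdr* were themselves lower in every TDP-43iΔEC mouse than in every control. That scaling moved the median of all tested genes to 0.23. A change of scaling shifts all genes nearly alike by construction. The mean of the 5 genes relative to that median was therefore still -1.11, as with TMM, and nothing is read from this.

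**Figure D4:**
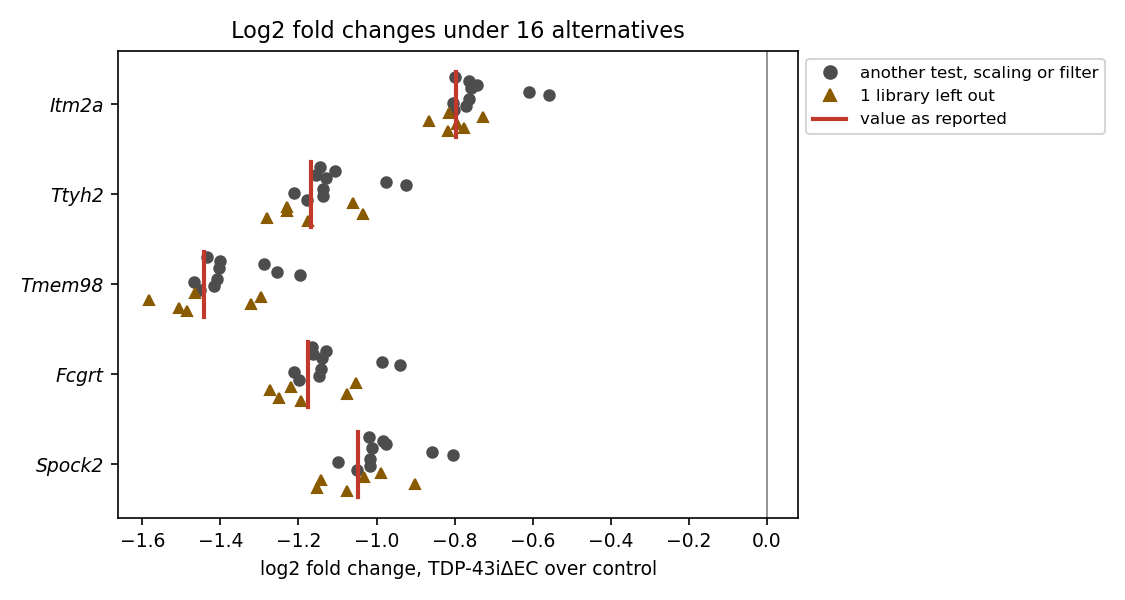
Log2 fold change of TDP-43iΔEC over control mice (horizontal axis) of each gene as reported (red bar) and under 16 alternatives, with circles for another test, scaling or filter and triangles for fits with 1 mouse left out. All values lie below 0, from -1.58 for *Tmem98* without control 3 to -0.56 for *Itm2a* with scaling to 5 EC markers.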

How the data were processed

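The authors mapped the reads of SMARTseq2 libraries to GRCm39 with STAR 2.7.8a and obtained an estimated count per gene of GENCODE M30 with RSEM 1.3.0. The deposited estimated counts were whole numbers (0 values were not whole), neither scaled nor filtered. No molecular identifiers were described, so PCR copies count as reads. Groups came from the sample labels. The 5 genes and the lists were chosen with earlier results of these data known. Genotypes were compared by limma 3.58.1 with voom weights (R 4.3.3) after TMM scaling and filterByExpr of edgeR 4.0.16, with Benjamini-Hochberg adjustment over all tested genes, a threshold of 0.05 and no covariate. Standard errors are those of this fit. The named genes were the members, *Tardbp*, all genes of the family, partner, Fc receptor and testican lists, the 2 lowest p values of each other list, the 3 genes most like each member, markers and sex-linked genes. Neighbouring genes and the canonical length were added after values were seen. Positions and lengths are from GENCODE M39 (98.7% of rows matched). No library repeated another (chi-square per degree of freedom at least 162.5 for each pair). Procedures were tested on simulated counts. Alternatives included edgeR's quasi-likelihood test and DESeq2 1.42.0.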

Additional observations from a re-analysis of the deposited data

How the results depend on the processing

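All log2 fold changes of the 5 genes stayed below 0 in the 16 alternatives, and their mean ran from -1.22 to -0.88. With 1 mouse left out it was between -1.22 and -1.03. It was -0.94 with library size only and -0.88 with scaling to 5 EC markers, settings that by construction moved the median of all genes to 0.18 and 0.23. The members were chosen on this comparison in the same mice, so their steady direction is a description and not support. The number of genes past an adjusted p of 0.05 changed with the setting. Lower and higher genes numbered 14 and 4 as reported, 0 and 0 with edgeR (848 at an unadjusted p under 0.05), 143 and 107 with DESeq2, 49 and 27 without a filter, 29 and 10 with at least 10 counts in every library, and 0 and 1 with scaling to EC markers. The lower genes numbered 6 with library size only, 9 without ribosomal RNA, mitochondrial and hemoglobin genes, and 25 at an adjusted p under 0.1. Leaving out hemoglobin genes by construction takes *Hbb-bs*, *Hbb-bt*, *Hba-a1* and *Hba-a2* from the 14. With 1 mouse left out there were 0 (without TDP-43iΔEC 1) to 13 (without control 3) lower and 0 to 1 higher genes. Lower genes without overlap numbered 654 with library size only (higher 1394), 523 with EC scaling (higher 1433), and 1635 to 2035 with 1 mouse left out, where fewer mice make overlap rarer. Related genes past the threshold numbered 0 with any mouse left out, 2 with DESeq2 (*Fcgr3*, *Rab4a*) and 1 without a filter (*Fcgr3*). Except where a construction is named, the cause was not tested. The labels number mice 1 to 3 in both groups, but same-numbered mice did not deviate together (r = -0.06, -0.13 and -0.03 over genes). With the replicate number as a block, 19 genes were lower, 3 were higher, 0 related genes passed, 1039 genes were lower without overlap, and the mean of the 5 genes was -1.14. With 3 mice per group, changes of scarce relatives such as *Ttyh3* could not be resolved.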
